A study of Rattus norvegicus with 23 samples.

Results

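Livers of rats given chemotherapy on a selenium-enriched diet (Selfox) were compared with livers of rats given bacterial lipopolysaccharide into the portal vein (LPS). The libraries labelled Selfox (10) and LPS (7) were taken, 17 of the 23 in a series on rats that model portosinusoidal vascular disease, in which the small portal and sinusoidal vessels are affected. All rats were Sprague Dawley, and the labels used here give neither age nor sex. Selfox rats ate the selenium-enriched diet for 8 weeks and received 8 weekly intravenous injections. Each injection held 45 mg/kg of folinic acid, 3 mg/kg of oxaliplatin and 25 mg/kg of 5-fluorouracil. LPS rats underwent laparotomy under isoflurane, were fitted with an indwelling catheter that gave access to the portal vein, and received LPS at 1 mg/kg 2 times per week for 8 weeks. The 6 remaining libraries came from untreated controls (Control), for which no surgery is stated. Their levels are given as a background, and they also enter the filter, the scaling and the estimate of the spread. Diet and drugs were given together in Selfox, and LPS came with surgery and a catheter, so the parts of each treatment cannot be told apart. Nothing in the labels states that each library came from a separate rat, so p-values measure the spread between libraries, which may be technical.

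LPS is bound by LPS-binding protein and Cd14 and signals through Tlr4 to NF-kB, a transcription factor that induces chemokines and cytokines. Kupffer cells, the macrophages that sit inside the sinusoids, take up much of the LPS that arrives in portal blood, and sinusoidal endothelial cells form the wall beside them. Oxaliplatin forms platinum adducts on DNA, 5-fluorouracil blocks thymidylate synthase, and folinic acid strengthens that block. Oxaliplatin is known in the clinic for injury of the sinusoids, and bacterial products in portal blood have been used to model chronic inflammation of the portal tree.

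Libraries held 70.4 to 79.2 M (mega) counts in LPS and 65.1 to 74.8 M in Selfox, so the compared groups were of like depth. Control libraries were less deep, at 31.9 to 53.8 M. Expression is given as counts per M (CPM) after scaling by TMM factors. The liver label held in the 17 libraries compared: Alb, which encodes albumin, had the highest CPM in each, and Apoa1, Ttr, Cyp2e1 and Serpina1 always ranked among the first 215 genes. On the first principal component of log2 CPM, which held 24.6% of the variance over the 17 libraries, LPS libraries lay between -42.6 and -24.4 and Selfox libraries between 8.88 and 39.4. On the second, with 14.7%, Selfox 3, 4, 5 and 8 lay between 21.1 and 38.7 and the other 6 Selfox libraries between -35.2 and -15.9. Selfox 3, 4, 5 and 8 are called the apart libraries below. Late-clock libraries means those in which Dbp, an output gene of the clock, was above Arntl, a core clock gene whose messenger RNA peaks at the opposite time of day. They were LPS 5, 6 and 7, Selfox 8 and 1 Control library. In Selfox 8 Dbp and Arntl were nearly equal, at 3.352 and 3.348 log2 CPM. Selfox 8 is also an apart library, so the fit without the late-clock and that without the apart libraries both leave it out. The hour of collection is not given in the labels used here. Results that changed without the apart or without the late-clock libraries are for the most part given with the values of those fits. A result printed without such values is not thereby shown to be stable.

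**Figure D1:**
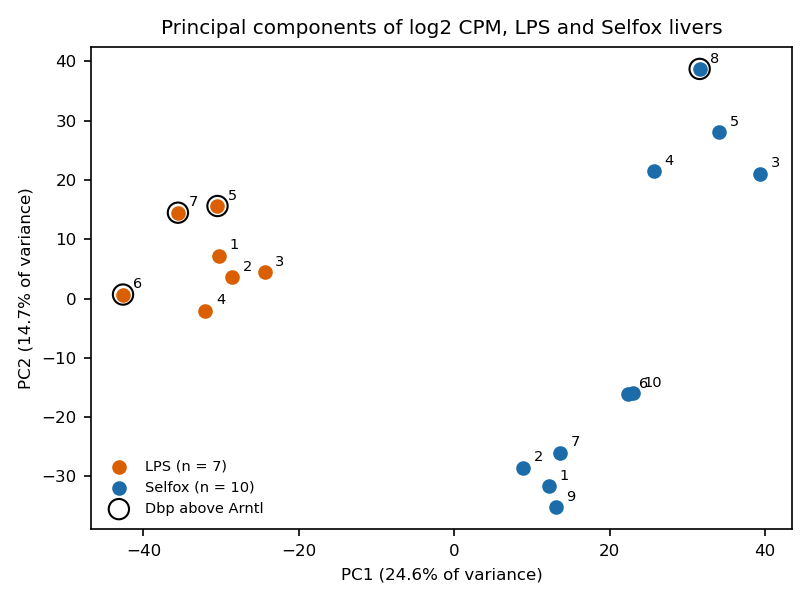
First and second principal components of log2 CPM (x and y axes, with their share of the variance) for the 7 LPS and 10 Selfox libraries, 1 point per library with its number. LPS and Selfox do not overlap on the first component, and Selfox 3, 4, 5 and 8 lie at 21.1 or above on the second while the other 6 lie at -15.9 or below. Rings mark libraries in which Dbp exceeded Arntl.

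With the quasi-likelihood test of edgeR and Benjamini-Hochberg adjustment, 2187 of 15079 genes differed between Selfox and LPS at an adjusted p under 0.05, which is 14.5% of the genes tested. Of these, 1035 were higher in Selfox (6.86%) and 1152 lower (7.64%), and 352 and 258 differed by at least 2-fold. The CPM ranges of the groups did not overlap for 263 genes (1.74%), with 112 above and 151 below in all Selfox libraries. The median log2 fold change over all genes tested was 0.0016. Without the late-clock libraries 1434 genes passed, 1148 of them among the 2187 and in the same direction, and without the apart libraries 2119 passed, of which 1486 were among the 2187 and in the same direction. All fold changes below are Selfox against LPS, on the log2 scale with the standard error (SE), and adjusted p-values come from this test. Gene lists are described by how many of their tested members passed in each direction, to be read against 6.86% higher and 7.64% lower over all genes. Camp, Fpr1, Il6, Sele, Eda2r and Egr3 met the filter on low counts only through Selfox libraries, so their calls, which are in the counts of their lists, support no difference, and their levels are given as a description.

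**Figure D2:**
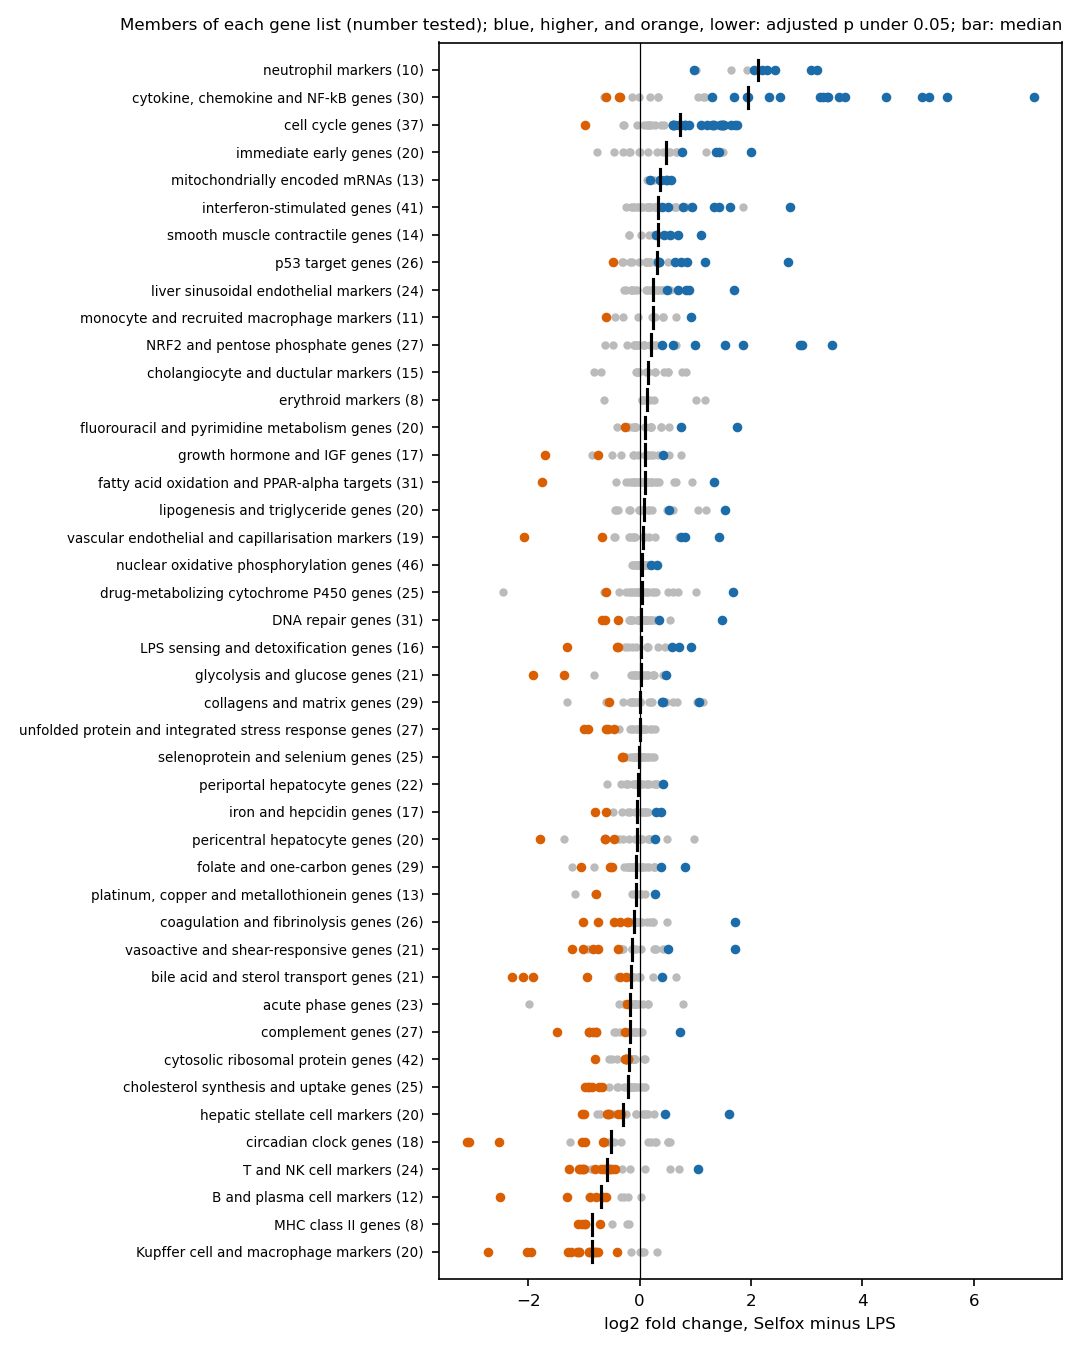
Log2 fold change, Selfox against LPS (x axis), of every tested member of the 44 gene lists (rows, with the number of members tested), ordered by the median of the list (black bar). Blue points passed the test and were higher in Selfox, orange points passed and were lower, grey points did not pass. Neutrophil markers and cytokine genes have the highest medians, 2.13 and 1.94, and Kupffer cell markers and MHC class II genes the lowest, -0.86 and -0.85.

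Markers of Kupffer cells were lower in Selfox than in LPS. Of 20 tested members of the Kupffer cell and macrophage list 15 were lower and 0 higher, with a median log2 fold change of -0.86. Marco, the scavenger receptor that binds bacteria and their products, stood at 65.6 to 79.96 CPM (median 69) in LPS and 7.65 to 13.6 CPM (median 11.1) in Selfox. All 10 Selfox libraries lay below every LPS library, and the difference was -2.71 ± 0.13 (adjusted p = 2.41e-12), a 6.56-fold lower level. Control libraries spanned the LPS range, at 59.1 to 113 CPM (median 88.3). Vsig4, a complement receptor of resident liver macrophages, read 35.6 to 60.1 CPM (median 53.3) in LPS and 9.05 to 16.8 CPM (median 12) in Selfox, again with no overlap (-2.02 ± 0.12, adjusted p = 5.17e-11). Adgre1, which encodes the macrophage antigen F4/80, read 37.5 to 93.7 CPM (median 62.2) in LPS and 13.7 to 21.5 CPM (median 16.6) in Selfox, a difference of -1.94 ± 0.16, and Control had a median of 36.6 CPM. Cd5l, a secreted scavenger receptor protein of tissue macrophages, differed by -1.23 ± 0.12, from a median of 189 CPM to 82.7 CPM.

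The other members that passed covered the lineage receptor Csf1r at -1.13, the Kupffer cell lectin Clec4f at -1.29, the haemoglobin scavenger receptor Cd163 at -1.09, the folate receptor Folr2 at -1.08, the lysosomal protein Cd68 at -0.81, the sialic acid lectin Siglec1 at -0.80, Aif1 at -0.75 and the signalling adaptor Tyrobp at -0.40, which did not pass without LPS 1 or 7 (adjusted p reached 0.067). Summed over the 20 markers, expression ran from 909 to 1341 CPM in LPS, from 540 to 735 CPM in Selfox and from 1080 to 1387 CPM in Control, so Selfox lay below both other groups in every library. In whole liver, fewer cells of a type and less RNA per cell cannot be told apart, here or for any marker below. The same 15 of 20 count was found without the late-clock and without the apart libraries.

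The C1q genes, which macrophages express, were lower as well. C1qa, C1qb and C1qc, the 3 chains of the recognition molecule of the classical pathway, differed by -0.79 ± 0.12, -0.90 ± 0.12 and -0.90 ± 0.11. Cfd, complement factor D of the alternative pathway, stood at 8.8 to 15.3 CPM (median 11.5) in LPS and 3.35 to 6.13 CPM (median 4.08) in Selfox. Its ranges did not overlap, and the difference was -1.49 ± 0.14 (adjusted p = 2.36e-07). Of 27 complement genes 7 were lower and 1 higher, the receptor C3ar1 at 0.72 ± 0.19, and the 3 C1q genes count in both lists. The median over the list was -0.17, and 11 passed as lower without the apart libraries. C3ar1 did not pass with the late-clock libraries left out (adjusted p = 0.0765) or with the apart libraries left out (adjusted p = 0.0618).

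Monocyte and recruited macrophage markers did not share this direction as a list. Of 11 tested, Fcgr1a, the high-affinity IgG receptor, was lower at -0.60 ± 0.10, and Cd14, the LPS co-receptor, was higher at 0.93 ± 0.24, with 9 not passing. Cd14 did not pass without the late-clock libraries (0.59, adjusted p = 0.192) or without the apart libraries (0.56, adjusted p = 0.116). The summed level of the 11 markers was 132 to 186 CPM in LPS and 125.0 to 259 CPM in Selfox.

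Many genes of antigen presentation and lymphocytes were lower in Selfox. Of 8 MHC class II genes tested 5 were lower and 0 higher, with a median of -0.85. RT1-Ba, the rat class II alpha chain of the B locus, stood at 69.4 to 121 CPM (median 79.2) in LPS, 20.1 to 51.2 CPM (median 42.5) in Selfox and 46 to 71.3 CPM (median 57.4) in Control. No Selfox library reached the lowest LPS library, and the difference was -1.11 ± 0.16 (adjusted p = 5.97e-05). RT1-Da differed by -0.98 ± 0.14, RT1-Db1 by -1.02 ± 0.20 and Cd74, the invariant chain that guides class II molecules, by -0.99 ± 0.16. Reads of RT1 genes can be shared between near-identical copies, so the split between them is uncertain. Class II genes are expressed by B cells and macrophages among others, whose marker lists were lower here too, and their part in this result was not tested.

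Of 24 T and NK cell markers 15 were lower and 1 higher, with a median of -0.59. Cd4, the coreceptor of helper T cells that rat macrophages also carry, read 17 to 32.2 CPM (median 29.7) in LPS and 9.73 to 16.9 CPM (median 11.2) in Selfox. The ranges lay close but did not overlap, and the difference was -1.06 ± 0.14 (adjusted p = 3.22e-05). Cd3d and Cd3e, chains of the T cell receptor complex, differed by -1.27 ± 0.29 and -1.09 ± 0.26. Gzma, a granzyme of cytotoxic cells, differed by -0.80 ± 0.15 and the chemokine Ccl5 by -0.60 ± 0.13. Xcl1, a chemokine of activated lymphocytes, was the member higher in Selfox, at 1.05 ± 0.31, and it did not pass without LPS 2 (adjusted p reached 0.0533) or without the apart libraries (adjusted p = 0.209). Summed, the 24 markers held 50.9 to 81.99 CPM in LPS, 33.0 to 50.5 CPM in Selfox and 47.9 to 66.5 CPM in Control, and 9 members passed as lower without the late-clock libraries. Cd3e did not pass once the late-clock libraries were left out (adjusted p = 0.0847).

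Of 12 B and plasma cell genes tested 6 were lower in Selfox and 0 higher, with a median of -0.68. Igh-6, an immunoglobulin mu heavy chain gene whose reads can be shared with other heavy chain copies, stood at 27.9 to 49.5 CPM (median 29.96) in LPS, 1.84 to 12.6 CPM (median 5.97) in Selfox and 0.948 to 12.8 CPM (median 2.45) in Control. LPS and Selfox did not overlap, and the difference was -2.51 ± 0.44 (adjusted p = 5.78e-04). Jchain, which joins the units of secreted IgM and IgA, read 8.12 to 23.2 CPM (median 10.3) in LPS and 2.78 to 9.89 CPM (median 4.5) in Selfox, with 8 of 10 Selfox libraries below every LPS library (-1.30 ± 0.27). The 12 genes together held 49.4 to 81.3 CPM in LPS, 13.5 to 29.2 CPM in Selfox and 17.5 to 32.5 CPM in Control, and Igh-6 made up a large part of the sum in LPS. For Blk and Cd37 the Control medians, 1.68 and 2.61 CPM, lay close to or above those of LPS, 1.33 and 2.6 CPM, and Selfox lay below both at 0.644 and 1.69 CPM. Of the others, Blk at -0.89, Cd37 at -0.65 and Cd22 at -0.60 passed, Cd22 not without LPS 1 or 2 (adjusted p reached 0.0556), while the B cell antigen gene Ms4a1 at -0.72 ± 0.35 did not (adjusted p = 0.176). Cd22 did not pass once the apart libraries were left out (adjusted p = 0.139).

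**Figure D3:**
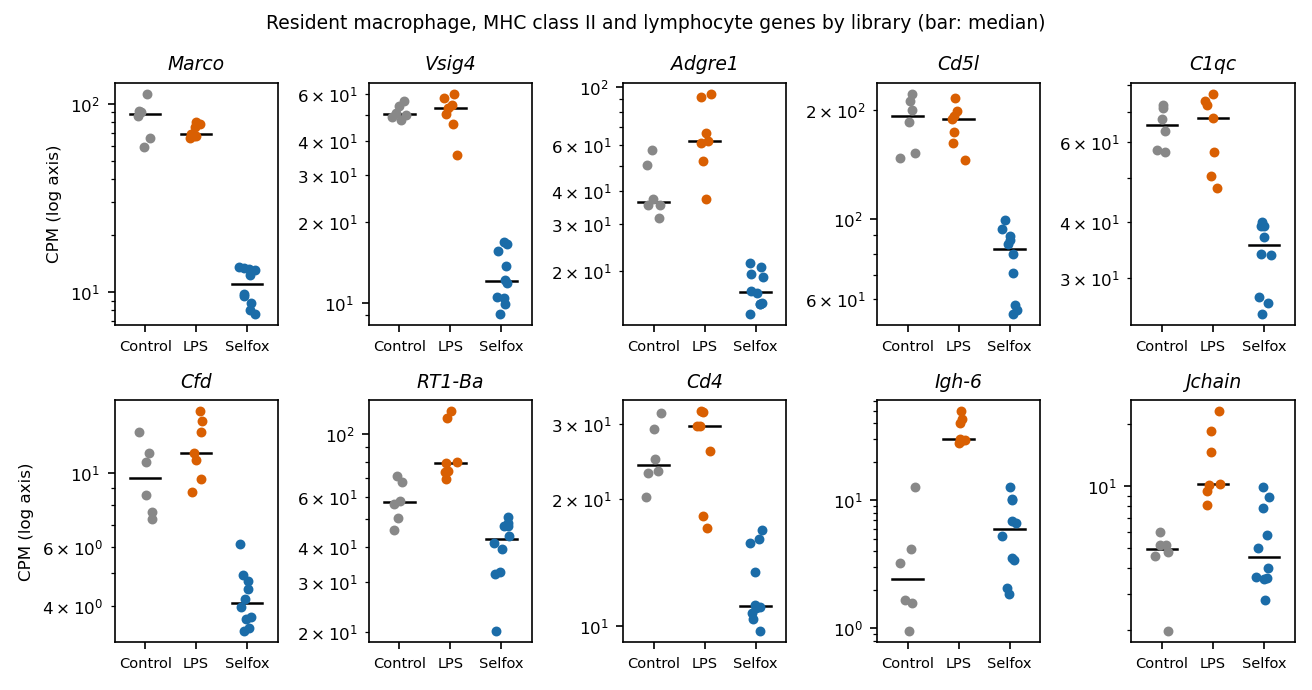
CPM (log y axes) of 10 macrophage, complement, class II, T cell and B cell genes in each library of Control (grey), LPS (orange) and Selfox (blue), with the group median as a black bar. Marco, Vsig4, Adgre1, Cd5l, C1qc, Cfd, RT1-Ba, Cd4 and Igh-6 show no Selfox library at or above the lowest LPS library, and for Igh-6 and Jchain the medians of Selfox and Control lie below LPS.

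Chemokine and NF-kB response genes were higher in Selfox, with very different levels between Selfox libraries. Of 30 members of the cytokine list 17 were higher, Il6 and Sele among them, and 3 lower, with a median of 1.94. Cxcl10, a chemokine that attracts T cells and monocytes, ranged from 0.937 to 3.53 CPM over the 7 LPS libraries. In Selfox it stood at 1054 CPM in library 8, 709 in 5, 622 in 3, 181 in 4, 66.4 in 6, 51.99 in 10, 7.01 in 7, 6.69 in 1, 3.58 in 9 and 3.41 in 2. The 4 apart libraries thus held the 4 highest values, 9 of 10 Selfox libraries lay above every LPS library, and the difference was 7.07 ± 1.30 (adjusted p = 0.001). Without the apart libraries it was 3.53 (adjusted p = 0.00435). Control libraries held 1.59 to 11.8 CPM (median 4.77).

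Several other chemokines and cytokines were higher as well. Ccl2, which attracts monocytes, read 0.277 to 2.04 CPM (median 0.75) in LPS and 0.923 to 98 CPM (median 14.7) in Selfox, highest in Selfox 3 and 8, and differed by 5.20 ± 0.94 (adjusted p = 8.50e-04), or by 3.00 without the apart libraries. Cxcl2, which attracts neutrophils, read 0.588 to 3.39 CPM (median 1.18) in LPS and 2.03 to 82 CPM (median 17.3) in Selfox (4.43 ± 0.80). Ccl3 and Ccl4, which attract macrophages and T cells, differed by 3.58 ± 0.64 and 3.68 ± 0.65. For each of these 4 genes 9 of 10 Selfox libraries lay above every LPS library. Control libraries also reached above LPS for Cxcl2 (up to 14.1 CPM), Ccl3 (7.32 CPM) and Ccl4 (3.17 CPM), but not for Ccl2 (1.13 CPM). Ccrl2, a receptor that presents the chemoattractant chemerin, was higher in all 10 Selfox libraries than in any LPS library (3.46 ± 0.51, adjusted p = 1.41e-04). Its Control range was 1.03 to 5.91 CPM (median 1.59), and the lowest Selfox library stood at 2.53 CPM. Il6 was near 0 in LPS, at 0 to 0.167 CPM (median 0.0511), and 0.174 to 9.39 CPM (median 2.17) in Selfox. Il1a, counted in the cytokine and the sinusoidal endothelial lists, read 16 to 25.7 CPM (median 21.6) in LPS and 28.1 to 128 CPM (median 54.9) in Selfox, without overlap (1.69 ± 0.29). Its Control range, 25.5 to 34.1 CPM (median 29.8), overlapped both.

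Genes that curb or transmit the NF-kB signal were among the largest rises. Tnfaip3, the A20 protein that limits NF-kB, was narrow in LPS at 15.1 to 19.3 CPM (median 17.3) and wide in Selfox at 12.9 to 500.3 CPM (median 106). Of the 10 Selfox libraries 7 lay above every LPS library and 1 below, and the difference was 3.39 ± 0.72 (adjusted p = 0.0033). Without the apart libraries it was 1.45 (adjusted p = 0.0473). It did not pass once the late-clock libraries were left out (3.14, adjusted p = 0.0601). Ripk2, the kinase downstream of NOD receptors, differed by 3.62 ± 0.84 and Rnd1, a small GTPase, by 3.43 ± 0.92. Neither passed without the apart libraries, where Ripk2 stood at 0.68 and Rnd1 at 0.23, or with the late-clock libraries left out (adjusted p = 0.0799 and 0.163). Both passed each fit that left out 1 library. Icam1, the adhesion molecule that binds leukocytes, read 21.5 to 40.8 CPM (median 30.03) in LPS and 19.8 to 569.5 CPM (median 71.9) in Selfox (2.52 ± 0.62), and it did not pass without the apart libraries (0.45, adjusted p = 0.281). Icam1 did not pass once the late-clock libraries were left out (adjusted p = 0.0984).

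The members lower in Selfox were Ccl5 at -0.60, the alarmin Il33 at -0.35 ± 0.11 and the inflammasome substrate Il18 at -0.37 ± 0.11. Il33 did not pass without LPS 1, 2, 4, 5, 6 or 7 or Selfox 1, 3, 4, 6, 7 or 10 (adjusted p reached 0.0943), and Il18 did not without LPS 2, 3 or 7 (adjusted p reached 0.0854). Without the apart libraries 9 members of the cytokine list were higher and 3 lower, with a median of 0.45, and without the late-clock libraries 7 were higher and 2 lower. Il33 did not pass once the late-clock libraries were left out (adjusted p = 0.22), nor did Il18 once the apart libraries were (adjusted p = 0.0683).

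The 250 bases before the start sites of 3 of these genes are shown as examples of 2 chemokines and an NF-kB inhibitor that were higher, have a promoter entry and hold a kappa-B match (RefSeq, build GRCr8, 5′ to 3′ on the gene's strand, with kappa-B motif matches and, at the 5′ end of Cxcl10, the ISRE core GAAANNGAA in capitals). Cxcl10 lies at chr14:15988816-15989065 on the plus strand, Cxcl2 at chr14:17467256-17467505 and Tnfaip3 at chr1:15543980-15544229 on the minus strand.
Cxcl10: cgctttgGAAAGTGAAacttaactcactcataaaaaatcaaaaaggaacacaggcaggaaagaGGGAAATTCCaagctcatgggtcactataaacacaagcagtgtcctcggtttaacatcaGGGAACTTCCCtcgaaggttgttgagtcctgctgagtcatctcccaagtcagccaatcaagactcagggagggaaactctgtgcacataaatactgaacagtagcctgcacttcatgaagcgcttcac
Cxcl2: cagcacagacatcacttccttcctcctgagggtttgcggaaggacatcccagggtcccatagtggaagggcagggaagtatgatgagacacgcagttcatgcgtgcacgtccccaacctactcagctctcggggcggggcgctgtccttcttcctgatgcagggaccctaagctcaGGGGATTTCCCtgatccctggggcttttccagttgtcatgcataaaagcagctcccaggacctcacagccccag
Tnfaip3: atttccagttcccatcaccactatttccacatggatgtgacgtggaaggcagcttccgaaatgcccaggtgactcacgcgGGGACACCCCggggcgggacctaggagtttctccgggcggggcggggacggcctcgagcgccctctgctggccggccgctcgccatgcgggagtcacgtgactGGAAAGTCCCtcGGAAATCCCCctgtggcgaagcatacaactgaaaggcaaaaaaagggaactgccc
Matches were sought on both strands, overlapping ones included, in windows of 300 bases (250 before to 50 after the start). The kappa-B motif was found in 8 of the 14 promoters with an entry among the 17 higher cytokine genes, Il6 among them. Over all 27457 promoters its share was 7.6%. The list was chosen in part as NF-kB genes, so a higher kappa-B share may come from that choice alone. Members that did not pass were not set beside them, and the kappa-B motif was not among the motifs set beforehand. The ISRE core was found in 2 of the 14, against 9.5%. Ccl2, Ccl3 and Ccl4 had no entry. Of the 6 promoters with an entry among the 7 lower clock genes 0 held the D-box TTATGTAA, which 0.881% of all promoters hold. Of the 2 with an entry among the 6 lower cholesterol genes 0 held the sterol regulatory element TCACNCCAC, against 1.13%. A match is a description of the letters and not evidence of binding, and no match says only that these letters are not in this window.

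**Figure D4:**
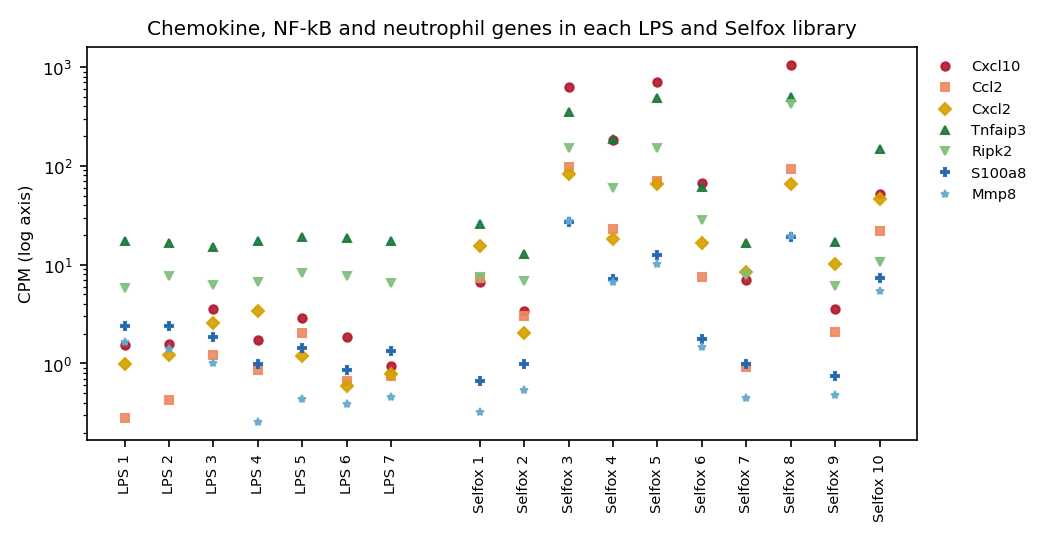
CPM (log y axis) of 5 chemokine and NF-kB genes and 2 neutrophil genes in each LPS and Selfox library (x axis), 1 symbol per gene. In LPS libraries Cxcl10 lies at 3.53 CPM or below. Selfox 3, 4, 5 and 8 hold the highest Cxcl10, and Selfox 3, 4, 5, 8 and 10 the highest S100a8 and Mmp8.

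Neutrophil markers were high in the same part of the Selfox group. Of 10 tested 7 were higher, Camp and Fpr1 among them, and 0 lower. Mmp8, the neutrophil collagenase, read 0.255 to 1.64 CPM (median 0.462) in LPS and 0.32 to 27.6 CPM (median 3.44) in Selfox, and S100a8, a calcium-binding protein of granulocytes, 0.868 to 2.39 CPM (median 1.43) and 0.669 to 27.2 CPM (median 4.5). For each, Selfox 3, 4, 5, 8 and 10 lay above every LPS library and the other 5 did not. The differences were 3.19 ± 0.88 (adjusted p = 0.0178) and 2.29 ± 0.72 (adjusted p = 0.035). S100a9, the partner of S100a8, differed by 2.20 ± 0.65 and the gelatinase Mmp9 by 2.05 ± 0.62. The formyl peptide receptor Fpr1 read 0 to 0.139 CPM (median 0.050) in LPS and 0.027 to 1.72 CPM (median 0.12) in Selfox. Of single genes, S100a8 did not pass without LPS 3, 4, 5, 6 or 7 or Selfox 3, 5 or 8 (adjusted p reached 0.0741), S100a9 without LPS 4 or 6 or Selfox 3 (adjusted p reached 0.0564) and Mmp9 without LPS 4, 5 or 6 or Selfox 3 or 8 (adjusted p reached 0.0618). Fpr1 fell below the filter on low counts without Selfox 3, 4, 5, 8 or 10 and was not tested there.

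The 10 neutrophil markers summed to 4.63 to 12.2 CPM in LPS and 4.70 to 13.8 CPM in Control. In Selfox they summed to 5.51 to 128 CPM with a median of 22.5 CPM, and the part of these cells in the chemokine result was not tested. The count of 7 rested on single libraries: it was 1 without Selfox 3, 2 without Selfox 8 or LPS 4, 3 without LPS 6, and 4 without Selfox 5 or LPS 3, 5 or 7. It was 0 without the late-clock libraries, 0 without the apart libraries (where Mmp8 differed by 0.86, adjusted p = 0.419) and 1 with limma voom.

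Interferon-stimulated genes were higher in part. Of 41 tested 8 were higher and 0 lower, with a median of 0.33 and 35 positive values. Gbp5, a guanylate-binding protein of the interferon-gamma response, read 3.68 to 5.08 CPM (median 4.2) in LPS and 4.6 to 68.7 CPM (median 25.7) in Selfox, where 9 of 10 libraries lay above every LPS library (2.69 ± 0.47, adjusted p = 5.97e-04). Gbp2 differed by 1.63 ± 0.32, and its Control range, 15.9 to 21.3 CPM (median 19), lay above all LPS libraries. Irgm, an immunity-related GTPase, was higher by 0.79 and Rsad2, the antiviral protein viperin, by 0.93, with Control medians of 41.5 and 3.98 CPM against 16.3 and 1.61 in LPS and 27.1 and 2.98 in Selfox. Mx2, an antiviral GTPase, passed at 1.33 ± 0.38. The count was 5 without LPS 6, 3 without the late-clock libraries and 4 without the apart libraries. Mx2 did not pass once the late-clock libraries were left out (adjusted p = 0.0643). Irgm and Rsad2 did not pass with the late-clock libraries left out (adjusted p = 0.0688 and 0.0623) or with the apart libraries left out (adjusted p = 0.0583 and 0.0712). The ISRE core was found in 5 and the kappa-B motif in 3 of the 7 promoters with an entry among the 8 genes. As the list was chosen for the interferon response, these counts are a description only.

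Of 16 genes that sense or detoxify LPS 3 were higher and 3 lower. Aoah, an acyl hydrolase that detoxifies lipid A, read 1.06 to 3.04 CPM (median 1.84) in LPS and 0.552 to 1.4 CPM (median 0.68) in Selfox, with 9 of 10 Selfox libraries below every LPS library (-1.31 ± 0.23, adjusted p = 5.19e-04). Its Control median was 0.907 CPM. Scarb1, the HDL receptor that also binds LPS, was lower at -0.40 ± 0.10. Cd180, a Toll-like receptor homologue that pairs with Ly86, was higher at 0.70 ± 0.16, and the adaptor Ticam2 at 0.59. Tlr4 itself did not pass (0.46 ± 0.19, adjusted p = 0.116), with 1.39 to 2.25 CPM (median 1.57) in LPS and 1.15 to 3.7 CPM (median 2.41) in Selfox. Lcn2, a siderophore-binding protein induced by LPS, spanned 0.224 to 138 CPM (median 5.4) in LPS and 0.233 to 19.9 CPM (median 2.04) in Selfox and did not pass (-1.97 ± 0.92, adjusted p = 0.162). Without the apart libraries Lcn2 passed at -3.99 (adjusted p = 0.0269) and Tlr4 at 0.77 (adjusted p = 0.00143). Of 23 acute phase genes only Serpina1 passed, lower at -0.22 ± 0.07 and not passing without LPS 3 (adjusted p reached 0.0533), while 6 were lower without the apart libraries. Ticam2 and Serpina1 did not pass with the late-clock libraries left out (adjusted p = 0.0993 and 0.123) or with the apart libraries left out (adjusted p = 0.0838 and 0.129).

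Endothelial genes differed in a subset. Of 24 sinusoidal endothelial markers 5 were higher and 0 lower, with a median of 0.24. Mmrn2, an extracellular matrix protein of endothelium, read 4.51 to 6.99 CPM (median 5.76) in LPS and 8.79 to 12.3 CPM (median 10.6) in Selfox, without overlap (0.89 ± 0.09, adjusted p = 6.67e-07). Kdr, the receptor for Vegfa, read 32.8 to 64.7 CPM (median 50.7) in LPS and 59.4 to 103 CPM (median 70.7) in Selfox (0.69 ± 0.15), Bmp2, which signals to hepatocytes in iron control, differed by 0.83 ± 0.16, and the hyaluronan receptor Lyve1 by 0.50 ± 0.11. Stab2, a scavenger receptor typical of these cells, did not pass (0.54 ± 0.19, adjusted p = 0.0581). Summed expression of the 24 markers was 390.3 CPM in LPS 6 and 392 CPM in LPS 5, both late-clock libraries, 560.5 to 726 CPM in the other LPS libraries and 651 to 832 CPM in Selfox. Without the late-clock libraries 4 markers were higher and 4 lower, and Kdr stood at 0.53 (adjusted p = 0.0517).

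Of 19 genes of larger vessels and of capillarisation, the gain of a basement membrane by sinusoids, 3 were higher and 2 lower. Col4a1 and Col4a2, the main chains of basement membrane collagen, were higher at 0.75 ± 0.16 and 0.81 ± 0.14, with 9 of 10 Selfox libraries above every LPS library for each. Apln, the apelin peptide of sprouting endothelium, was higher at 1.42 ± 0.32, at low medians of 0.25 CPM in LPS and 0.664 CPM in Selfox. Esm1, a proteoglycan of endothelial tip cells, read 1.05 to 3.66 CPM (median 2.3) in LPS and 0.18 to 0.931 CPM (median 0.525) in Selfox, where all 10 libraries lay below LPS (-2.07 ± 0.34, adjusted p = 3.64e-04). Sox17, a transcription factor of arterial endothelium, was lower at -0.68 ± 0.16. Vwf, often used to mark capillarised sinusoids, read 13.9 to 19.3 CPM (median 14.5) in LPS and 10.1 to 17.4 CPM (median 14.5) in Selfox, and its difference of -0.12 ± 0.09 did not pass (adjusted p = 0.414), while its Control median was 9.65 CPM.

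Of 21 vasoactive and flow-responsive genes 2 were higher and 5 lower. Nos3, the endothelial nitric oxide synthase, read 4.09 to 5.87 CPM (median 5.33) in LPS and 6.01 to 8.49 CPM (median 7.39) in Selfox, without overlap (0.52 ± 0.09, adjusted p = 5.61e-04). Edn1, which encodes the constrictor endothelin-1, was higher at 1.71 ± 0.46, with its highest values in the apart libraries, and did not pass without them (0.60, adjusted p = 0.238). Its receptor gene Ednra was lower at -1.22 ± 0.35, a call lost without LPS 1 or 2 (adjusted p reached 0.0558). Thbd, the anticoagulant thrombomodulin, read 15 to 34.8 CPM (median 30.7) in LPS and 7.61 to 23.4 CPM (median 12.8) in Selfox, with 8 of 10 Selfox libraries below every LPS library (-1.02 ± 0.18). Ptgs1, a prostaglandin synthase, was lower at -0.83 ± 0.15, the angiotensin receptor Agtr1a at -0.39 ± 0.10 and Ace, which makes angiotensin II, at -0.75 ± 0.23, which did not pass without LPS 4 or 7 (adjusted p reached 0.0936). Edn1 did not pass once the late-clock libraries were left out (adjusted p = 0.132), nor did Ednra once the apart libraries were (adjusted p = 0.152).

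Some contractile genes were higher. Of 14 smooth muscle genes 5 were higher and 0 lower. Acta2, the smooth muscle actin of activated stellate cells and vessel walls, read 3.16 to 6.15 CPM (median 4.72) in LPS, 6.48 to 14.6 CPM (median 10.1) in Selfox and 3.48 to 4.8 CPM (median 4.15) in Control. No Selfox library fell within the LPS range, and the difference was 1.11 ± 0.15 (adjusted p = 2.66e-05). The actin-binding gene Tagln differed by 0.44 ± 0.09, the tropomyosin Tpm2 by 0.55 ± 0.12 and the leiomodin Lmod1 by 0.69 ± 0.14. The sums over the 14 genes overlapped widely, at 231 to 267 CPM in LPS and 222 to 287 CPM in Selfox.

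Of 20 hepatic stellate cell markers 7 were lower and 2 higher. Adamtsl2, a matrix protein, read 14.2 to 28.2 CPM (median 18.7) in LPS and 6.38 to 14.5 CPM (median 8.69) in Selfox (-1.04 ± 0.18), and Tcf21, a transcription factor of the lineage, differed by -1.005 ± 0.18. Colec11, a soluble lectin, was lower in all 10 Selfox libraries (-0.38 ± 0.08). The higher members were Nes, an intermediate filament of activated and perivascular cells, at 1.60 ± 0.28, and the pericyte gene Rgs5 at 0.45 ± 0.14, which did not pass without LPS 1, 2 or 3 (adjusted p reached 0.0686). Levels of Nes were low, with medians of 0.196 CPM in LPS and 0.513 CPM in Selfox. Stellate markers summed to 480 to 617 CPM in LPS, 385 to 539 CPM in Selfox and 414 to 608 CPM in Control, which overlapped both. Tcf21 had medians of 5.64 CPM in LPS, 3.03 CPM in Selfox and 3.23 CPM in Control, which lay near Selfox. The Control medians of Adamtsl2, 16.6 CPM, and Colec11, 43.2 CPM (45.6 in LPS and 35.3 in Selfox), lay nearer LPS. Of 29 collagen and matrix genes 3 were higher and 1 lower, close to the share over all genes. Loxl2, a collagen cross-linking enzyme, was higher in all 10 Selfox libraries (1.07 ± 0.14, adjusted p = 1.42e-05), Col5a2 was higher at 0.41 ± 0.11 and Timp2, a protease inhibitor, lower at -0.55 ± 0.11. Col5a1 at 0.43 ± 0.14 passed with all libraries but not without LPS 1, 2, 3, 5, 6 or 7 or Selfox 1, 3, 7, 8 or 9 (adjusted p reached 0.101). The fibrillar collagens Col1a1 at -0.14 ± 0.22 and Col3a1 at -0.01 ± 0.14 did not pass (adjusted p = 0.741 and 0.966). Of 15 cholangiocyte markers and 8 erythroid markers, 0 passed with edgeR. The lowest adjusted p among cholangiocyte markers was 0.0621, for the tight junction gene Cldn4 (-0.82 ± 0.29), and the erythroid marker Ahsp, which stabilizes alpha globin, stood at 1.17 ± 0.52 (adjusted p = 0.135). At an unadjusted p under 0.05 these lists held 7 and 3 genes, and by adjusted p DESeq2 called 1 and 0 and limma voom 4 and 0. Col5a2 did not pass once the late-clock libraries were left out (adjusted p = 0.0676). Col5a1 did not pass with the late-clock libraries left out (adjusted p = 0.278) or with the apart libraries left out (adjusted p = 0.0588). Cldn4 passed as lower with the late-clock libraries left out (-1.25, adjusted p = 0.0186).

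Targets of p53, the factor that DNA damage activates, were higher in part. Of 26 tested 8 were higher, Eda2r among them, and 1 lower. Zmat3, an RNA-binding p53 target, read 0.42 to 0.959 CPM (median 0.818) in LPS and 1.03 to 1.85 CPM (median 1.49) in Selfox, without overlap (0.85 ± 0.16, adjusted p = 7.11e-04). Its Control libraries, at 0.967 to 1.23 CPM (median 1.04), also lay above all LPS libraries and in part within the Selfox range. Eda2r, a member of the TNF receptor family, read 0.0259 to 0.389 CPM (median 0.139) in LPS, 0.45 to 1.64 CPM (median 1.17) in Selfox and 0 to 0.221 CPM (median 0.057) in Control. Plk2 differed by 0.63 ± 0.15 and the cell death effector Bax by 0.36 ± 0.09, and the exonuclease Aen was lower at -0.48 ± 0.13, a call lost without LPS 1 (adjusted p reached 0.0519). Cdkn1a, the classical p53-induced cell cycle inhibitor, did not pass (0.51 ± 0.40, adjusted p = 0.432), nor did Mdm2 (-0.14 ± 0.11). The list had 5 higher members without the late-clock libraries and 5 without LPS 7. Bax did not pass once the late-clock libraries were left out (adjusted p = 0.0948). Aen did not pass with the late-clock libraries left out (adjusted p = 0.0911) or with the apart libraries left out (adjusted p = 0.0709).

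Of 31 DNA repair genes 2 were higher and 3 lower, close to the background. Rev1, a polymerase that bypasses damaged bases, including platinum adducts, read 17.3 to 29.7 CPM (median 20.6) in LPS and 10.2 to 15.7 CPM (median 14.2) in Selfox, without overlap (-0.67 ± 0.09, adjusted p = 5.25e-05). Ung, which removes uracil from DNA, was lower at -0.61 ± 0.18 and the abasic site nuclease Apex1 at -0.38 ± 0.10, and Ung did not pass without LPS 5, 6 or 7 (adjusted p reached 0.0833). Xpc, a damage sensor of nucleotide excision repair, was higher at 0.36 ± 0.11, a call lost without LPS 4, 5, 6 or 7 or Selfox 3, 6, 7 or 9 (adjusted p reached 0.0854). Ung and Xpc did not pass once the late-clock libraries were left out (adjusted p = 0.229 and 0.221), nor did Apex1 once the apart libraries were (adjusted p = 0.0702).

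The drug-related lists held few passing genes. Among 20 genes of fluorouracil and pyrimidine metabolism, Tyms, the thymidylate synthase that fluorouracil inhibits, read 3.52 to 5.1 CPM (median 4.43) in LPS, 5.79 to 9.56 CPM (median 7.24) in Selfox and 3.82 to 4.83 CPM (median 4.22) in Control. Its LPS and Selfox ranges did not overlap (0.74 ± 0.10, adjusted p = 3.04e-05). Rrm2, a ribonucleotide reductase subunit, was higher at 1.75 ± 0.45, and Uck1, a uridine kinase, lower at -0.26 ± 0.08 with the call lost without LPS 1 or 7 (adjusted p reached 0.0635). Rrm2 had medians of 1.02 CPM in LPS, 2.65 CPM in Selfox and 1.9 CPM in Control. Of 13 platinum, copper and metallothionein genes, the zinc exporter Slc30a1 was lower in all 10 Selfox libraries (-0.78 ± 0.14), while the metallothionein gene Mt1 stood at -1.16 ± 0.44 and did not pass (adjusted p = 0.0797). Rrm2 and Uck1 did not pass once the late-clock libraries were left out (adjusted p = 0.0626 and 0.31).

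Of 25 selenoprotein and selenium genes 2 were lower and 0 higher: Selenos, a selenoprotein of the endoplasmic reticulum, at -0.32 ± 0.08 and Pstk, a kinase of selenocysteine synthesis, at -0.29 ± 0.06. Selenop, the plasma carrier of selenium, read 2056 to 2994 CPM (median 2576) in LPS and 2283 to 2856 CPM (median 2541) in Selfox (-0.05 ± 0.07, adjusted p = 0.678), and the glutathione peroxidases Gpx1 at -0.12 ± 0.17 and Gpx4 at -0.05 ± 0.09 did not pass. Of 29 folate and one-carbon genes 2 were higher and 3 lower. Aldh1l1, the cytosolic formyltetrahydrofolate dehydrogenase, was higher at 0.81 ± 0.14, with 9 of 10 Selfox libraries above every LPS library, and Amt of the glycine cleavage system at 0.38 ± 0.07. Mat2a, which makes S-adenosylmethionine, was lower at -0.49 ± 0.09 and Psph, the last step of serine synthesis, at -0.54 ± 0.13. Psph did not pass once the apart libraries were left out (adjusted p = 0.0612). Selenos did not pass with the late-clock libraries left out (adjusted p = 0.111) or with the apart libraries left out (adjusted p = 0.0707).

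Some detoxification genes of the NRF2 and pentose phosphate list were higher. Of 27 tested 8 were higher and 0 lower, with a median of 0.21. Gsta3, a glutathione S-transferase, read 0.98 to 4.06 CPM (median 2.6) in LPS, 4.36 to 69.3 CPM (median 21.5) in Selfox and 0.448 to 5.0 CPM (median 1.84) in Control. The LPS and Selfox ranges did not overlap (3.46 ± 0.59, adjusted p = 4.99e-04). Akr1b8, an aldo-keto reductase, read 0.18 to 0.742 CPM (median 0.331) in LPS and 1.12 to 6.43 CPM (median 2.37) in Selfox, again without overlap (2.91 ± 0.37). Its Control libraries, at 0.69 to 1.31 CPM (median 1.11), overlapped both ranges, and their median lay above all LPS libraries. Akr7a3, an aflatoxin aldehyde reductase, differed by 1.85 ± 0.41 and the cystine transporter Slc7a11 by 2.89 ± 0.69. Me1, the malic enzyme that supplies NADPH and counts also as a lipogenic gene, read 22 to 134 CPM (median 42.9) in LPS and 94 to 326 CPM (median 147) in Selfox (1.54 ± 0.32). Nqo1 at 0.22 ± 0.41, Gclc at -0.05 ± 0.19 and Txnrd1 at 0.09 ± 0.09, other standard targets of NRF2, did not pass. Without the late-clock libraries 5 members passed and without the apart libraries 10 were higher and 1 lower. Slc7a11 did not pass once the late-clock libraries were left out (adjusted p = 0.0819).

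Proliferation genes were higher in Selfox than in LPS. Of 37 cell cycle genes 23 were higher and 1 lower, with a median of 0.72. Mki67, the proliferation antigen, read 1.57 to 6.21 CPM (median 2.68) in LPS, 4.83 to 15.5 CPM (median 8.15) in Selfox and 3.06 to 11.3 CPM (median 6.17) in Control. Of the Selfox libraries 8 of 10 lay above every LPS library (1.51 ± 0.30, adjusted p = 0.00178), and the Control range overlapped both. Kif11, a motor of the mitotic spindle, read 2.01 to 2.88 CPM (median 2.32) in LPS and 3.43 to 5.9 CPM (median 4.13) in Selfox without overlap (0.81 ± 0.14). Its Control libraries overlapped both, at 2.07 to 4.39 CPM (median 3.82). Aurkb, a mitotic kinase, differed by 1.51 ± 0.31, Top2a by 1.51 ± 0.36, Cdk1 by 1.48 ± 0.41 and the replication helicase gene Mcm5 by 1.11 ± 0.31. Aurkb had medians of 0.531 CPM in LPS, 1.44 CPM in Selfox and 1.37 CPM in Control. For Tyms, also in this list, the Control median of 4.22 CPM lay near that of LPS, 4.43 CPM. Ccne1, cyclin E1, was the member lower in Selfox (-0.99 ± 0.27) and did not pass without the late-clock libraries (-0.52, adjusted p = 0.301) or without the apart libraries (adjusted p = 0.0748). The count of higher members was 21 without the late-clock and 23 without the apart libraries. Which cells divided was not measured.

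Among the 10 largest falls, Ccnf, a cyclin that directs protein degradation, went against the mitotic genes and read 8.4 to 43.7 CPM (median 13.4) in LPS and 3.08 to 7.14 CPM (median 4.49) in Selfox (-1.89 ± 0.28, adjusted p = 1.22e-04). Of 20 immediate early genes, which respond within minutes to growth factors and stress, 4 were higher and 0 lower. Egr3 had medians of 0.0834 CPM in LPS and 0.393 CPM in Selfox. Egr2 differed by 1.37 ± 0.33, Fosb by 1.43 ± 0.41 and Myc by 0.75 ± 0.21. Fosb and Myc did not pass without the late-clock libraries (adjusted p = 0.123 and 0.205), and Egr2 and Myc did not pass without the apart libraries (adjusted p = 0.0597 and 0.116).

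Some sterol and bile acid genes of hepatocytes were lower. Of 21 bile acid and sterol transport genes 6 were lower and 1 higher. Abcg5 and Abcg8, the paired transporter that secretes sterols into bile, read 6.49 to 37.3 CPM (median 17.8) and 3.0 to 21.1 CPM (median 7.84) in LPS and 0.921 to 11.6 CPM (median 2.74) and 0.255 to 6.92 CPM (median 1.07) in Selfox. For each, 8 of 10 Selfox libraries lay below every LPS library and Selfox 1 and 2 did not, and the differences were -2.09 ± 0.47 (adjusted p = 0.00513) and -2.28 ± 0.56 (adjusted p = 0.00898). Nr0b2, the nuclear receptor SHP that restrains bile acid synthesis, read 14.4 to 41.8 CPM (median 24.4) in LPS and 2.45 to 13.7 CPM (median 5.88) in Selfox, without overlap (-1.90 ± 0.29, adjusted p = 1.75e-04). The cholesterol exporter Abca1 was lower at -0.36 ± 0.10. Abcc4, an export pump of the sinusoidal membrane, was higher at 0.40 ± 0.12, a call lost without LPS 1, 2 or 3 or Selfox 1 or 10 (adjusted p reached 0.0666). Without the late-clock libraries 1 member was lower, Nr0b2, and Abcg5 and Abcg8 stood at -1.72 and -1.94 (adjusted p = 0.0645 and 0.0812). Abca1 did not pass once the late-clock libraries were left out (adjusted p = 0.0746), nor did Abcg8 once the apart libraries were (adjusted p = 0.0723).

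Of 25 cholesterol synthesis and uptake genes 6 were lower and 0 higher, with a median of -0.21, or 0.016 without the late-clock libraries. Sqle, the squalene epoxidase, read 42.4 to 176 CPM (median 81.4) in LPS and 32 to 83.5 CPM (median 45.6) in Selfox, where 4 of 10 libraries lay below every LPS library (-0.90 ± 0.25, adjusted p = 0.0179), and the call was lost without LPS 5 (adjusted p reached 0.064). Msmo1, a sterol methyl oxidase, differed by -0.92 ± 0.31 (adjusted p = 0.0481), and Hmgcs1, which makes HMG-CoA, did not pass at -0.54 ± 0.28 (adjusted p = 0.217). The call for Msmo1 was lost without LPS 3, 5, 6 or 7 or Selfox 2, 3, 4, 6, 7, 8, 9 or 10 (adjusted p reached 0.15). The count was 3 without LPS 5, and 2 without either the late-clock or the apart libraries. Sqle did not pass once the late-clock libraries were left out (adjusted p = 0.319). Msmo1 did not pass with the late-clock libraries left out (adjusted p = 0.737) or with the apart libraries left out (adjusted p = 0.133).

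Of 21 glycolysis and glucose genes 2 were lower and 1 higher. Pfkfb3, which makes the activator of glycolysis, read 16.7 to 28.8 CPM (median 22.5) in LPS and 2.93 to 26.8 CPM (median 6.16) in Selfox, with each Selfox library other than Selfox 8 below every LPS library (-1.35 ± 0.33, adjusted p = 0.00871), and the hexokinase Hk1 was higher at 0.47 ± 0.14, a call lost without LPS 5 or 6 (adjusted p reached 0.0625). Fgf21, a fasting and stress hormone of the liver, read 13.1 to 60.2 CPM (median 16.1) in LPS and 3.66 to 12.8 CPM (median 6.96) in Selfox, without overlap (-1.74 ± 0.41, adjusted p = 0.00606). It was 1 of 2 passing genes among 31 of fatty acid oxidation, with the lipase inhibitor Angptl4 at 1.33 ± 0.45, whose call was lost without LPS 1, 2, 3, 4, 5, 6 or 7 or Selfox 3, 4, 5, 7 or 8 (adjusted p reached 0.0916). Of 20 lipogenic genes Me1 and the elongase Elovl5 (0.53 ± 0.16) were higher, and Elovl5 did not pass without LPS 4, 5, 6 or 7 or Selfox 3, 6 or 9 (adjusted p reached 0.0711). Hk1, Angptl4 and Elovl5 did not pass with the late-clock libraries left out (adjusted p = 0.174, 0.279 and 0.289) or with the apart libraries left out (adjusted p = 0.178, 0.754 and 0.0526).

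**Figure D5:**
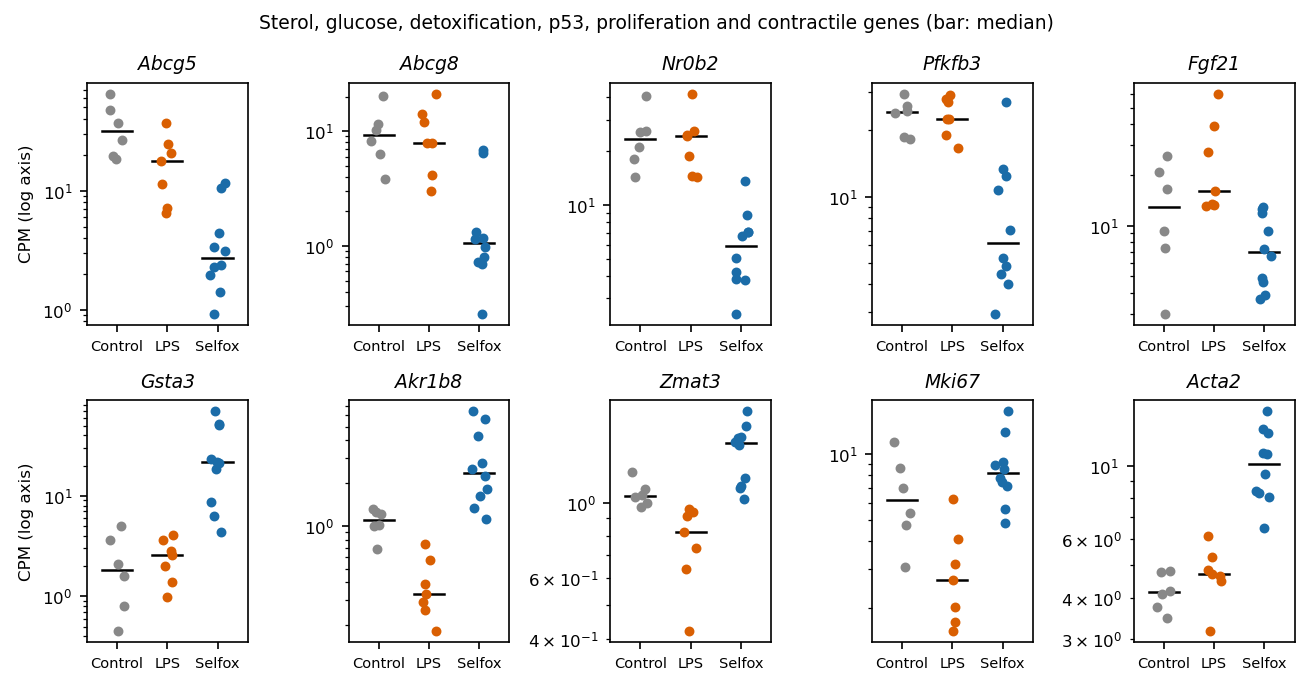
CPM (log y axes) of 5 sterol, glucose and fasting genes and of 5 detoxification, p53, proliferation and contractile genes in each library of Control (grey), LPS (orange) and Selfox (blue), with group medians as black bars. In Selfox, Nr0b2 and Fgf21 lie below every LPS library, and Gsta3, Akr1b8, Zmat3 and Acta2 lie above every LPS library.

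Few drug-metabolizing and periportal genes passed. Of 25 drug-metabolizing cytochrome P450 genes, Cyp2b2, induced by phenobarbital-type drugs and near-identical to a paralogue, read 5.4 to 19.8 CPM (median 6.48) in LPS, 13 to 47.9 CPM (median 28.4) in Selfox and 15.2 to 125 CPM (median 59.9) in Control (1.67 ± 0.38, adjusted p = 0.00548). It did not pass without the late-clock libraries (1.29, adjusted p = 0.0904). Por, the reductase that feeds electrons to P450 enzymes, was lower at -0.61 ± 0.14. Of 22 periportal genes 1 was higher, Igf1 at 0.42 ± 0.12, and of 20 pericentral genes 4 were lower and 1 higher. The lower ones were the glutamate transporter Slc1a2 at -1.79 ± 0.30, the dicarboxylate transporter Slc13a3 at -0.63 ± 0.19, the Wnt target Axin2 at -0.62 ± 0.15 and the secreted protein Lect2 at -0.45 ± 0.12. Of 17 growth hormone and IGF genes, Igfbp2 and Igfbp3, carriers of insulin-like growth factors, were lower at -1.69 ± 0.37 and -0.74 ± 0.13, and Igf1 was the higher one. Serpina7, the thyroxine carrier of plasma, was among the 10 largest falls and read 6.84 to 49.9 CPM (median 14) in LPS and 1.79 to 12.8 CPM (median 4.49) in Selfox (-1.83 ± 0.41). Slc13a3 did not pass without LPS 1, 5 or 7 (adjusted p reached 0.0749). Igf1, Slc13a3, Axin2 and Igfbp2 did not pass once the late-clock libraries were left out (adjusted p = 0.18, 0.182, 0.09 and 0.0586).

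Of 26 coagulation and fibrinolysis genes 6 were lower and 1 higher. Serpind1, heparin cofactor II, differed by -0.46 ± 0.08 (adjusted p = 4.63e-04), coagulation factor F5 by -0.35 ± 0.08 and prothrombin, F2, by -0.23 ± 0.06, the last lost without LPS 5 (adjusted p reached 0.0508). Plau, the urokinase, was lower at -0.74 ± 0.17, and Thbd is described above. Of 17 iron and hepcidin genes, the BMP targets Id1 and Smad7 were lower at -0.81 ± 0.21 and -0.60 ± 0.17 while Hfe and Ireb2 were higher at 0.39 ± 0.08 and 0.29 ± 0.09, the last a call lost without LPS 2 or 7 (adjusted p reached 0.0587). F5, Smad7 and Ireb2 did not pass once the late-clock libraries were left out (adjusted p = 0.0618, 0.244 and 0.133). F2 did not pass with the late-clock libraries left out (adjusted p = 0.0803) or with the apart libraries left out (adjusted p = 0.0716).

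Of 27 genes of the unfolded protein and integrated stress responses 5 were lower and 0 higher, with a median of 0.0019. They were Trib3 at -0.99 ± 0.26, Herpud1 at -0.93 ± 0.19, the transcription factor Atf4 at -0.60 ± 0.13 and the stress sensor Ern1 at -0.47 ± 0.11, with Ddit3, at -0.57 ± 0.19, lost without LPS 1, 5, 6 or 7 or Selfox 1, 2, 4, 6, 7, 9 or 10 (adjusted p reached 0.167). The count was 3 without the late-clock libraries. Ddit3 did not pass once the late-clock libraries were left out (adjusted p = 0.361). Trib3 did not pass with the late-clock libraries left out (adjusted p = 0.209) or with the apart libraries left out (adjusted p = 0.0587).

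Transcripts of the mitochondrial genome were slightly higher. Of 13 mitochondrially encoded mRNAs all 13 had positive values and 7 passed, with a median of 0.37. Mt-cyb, the cytochrome b gene, read 3443 to 4423 CPM (median 4146) in LPS and 5049 to 6552 CPM (median 5581) in Selfox, without overlap (0.49 ± 0.07, adjusted p = 1.07e-04), and Mt-nd5 differed by 0.56 ± 0.12. The 13 together held 48184 to 56174 CPM in LPS and 56056 to 70706 CPM in Selfox. The count was 4 without LPS 2, without LPS 5 or without the late-clock libraries, and 6 without the apart libraries. Of 46 nuclear genes of oxidative phosphorylation 2 were higher, Sdha at 0.31 ± 0.06 and Ndufv1 at 0.20 ± 0.06. Ndufv1 did not pass once the late-clock libraries were left out (adjusted p = 0.17).

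Of 42 cytosolic ribosomal protein genes 7 were lower and 0 higher, with a median of -0.18. Rps25 at -0.25 ± 0.08 and Rps2 at -0.21 ± 0.06 were among them. Rps6, at 0.278 CPM in LPS, is low for a ribosomal gene, and since near-identical copies can share its reads its value of -0.79 ± 0.24 is uncertain. Calls were lost for Rps25 without LPS 1, 3, 4 or 6 or Selfox 5, 9 or 10 (adjusted p reached 0.0799), Rps2 without LPS 1, 2 or 4 (adjusted p reached 0.0696) and Rps6 without LPS 1, 4 or 6 (adjusted p reached 0.08). The count was not stable: it was 0 without LPS 1 or 4, 3 without LPS 3 or Selfox 9 or 10, 4 without LPS 2 or Selfox 5 and 12 without Selfox 2. It was 11 without the late-clock libraries and 0 without the apart libraries.

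Clock genes differed with the late-clock libraries. Of 18 tested 7 were lower and 0 higher, with a median of -0.51. Dbp read 39.4, 93.4 and 15.8 CPM in LPS 5, 6 and 7 and 0.987 to 2.03 CPM in the other LPS libraries. In Selfox it was 10.2 CPM in library 8, 5.33 CPM in 5 and 0.874 to 1.93 CPM in the others. The difference over all libraries was -3.10 ± 0.95 (adjusted p = 0.0306), and Ciart, a repressor of the clock, differed by -3.06 ± 0.82. Dbp did not pass without LPS 5 or 6 or Selfox 3, 4 or 10 (adjusted p reached 0.156). Ciart did not pass without LPS 6 (adjusted p reached 0.151) or without the apart libraries (-2.81, adjusted p = 0.0922). Without the late-clock libraries Dbp and Ciart turned to positive values that did not pass, 0.19 (adjusted p = 0.825) and 0.68 (adjusted p = 0.471). In that fit 0 members of the list passed, with a median of 0.03. Those libraries were picked by Dbp against Arntl, so that fit is not an independent check of the clock genes. It also leaves out 3 of the 7 LPS libraries. The count over all libraries was 1 without LPS 6, 3 without LPS 5 or Selfox 4 or 10, and 4 without LPS 7 or Selfox 1, 2, 3, 6, 7 or 9. Arntl did not pass in the fit of all libraries (0.51 ± 0.46, adjusted p = 0.517).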

How the data were processed

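RNA of rat liver was purified with Trizol and an RNeasy kit and made into stranded mRNA libraries, per the labels' protocols. The deposited values are raw counts per gene, made by the authors with FastQC, Trim Galore, STAR 2.7.9a and featureCounts of Subread 2.0.3, per the submitters' processing notes. Genome build, annotation, strand and multi-mapping settings were not given in the sources used here, which leaves overlapping, antisense and near-identical genes uncertain. Of 28913 rows, 15079 passed edgeR's filter (minimum count 10) and held 99.9859% of counts. All 23 libraries were fitted in R 4.3.3 with edgeR 4.0.16 (TMM factors, robust quasi-likelihood F test), and Selfox minus LPS was tested with Benjamini-Hochberg adjustment at 0.05 over all genes. SE is the fold change divided by the root of F. CPM used TMM-scaled library sizes, and components used log2 CPM with a prior count of 2. The method was tested on simulated counts.

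Groups came from the treatment labels, and 0 libraries had identical values. The 44 lists hold 1037 symbols, of which 995 had a row and 959 were tested. The members and lists were chosen with earlier results of these data known. Named genes are the 10 that rose most and the 10 that fell most among genes with a mean log2 CPM from 1 upward that passed with any 1 library left out, the 4 passing members of a list with the lowest adjusted p (or 2 if no member passed), members against the direction of most, and 12 set genes. Further list members are named after their values were seen, and some genes that the rule picks are not reported here. Alternatives were upper-quartile or RLE factors, a minimum count of 50 or none, DESeq2 1.42.0, voom of limma 3.58.1, LPS and Selfox alone, a replicate block, each library left out, and counts divided by 2, since of counts from 1 to 9 the even ones made up 66.1 to 74.9% in each library. Fits without the late-clock and without the apart libraries were added after seeing the data. Promoter letters came from RefSeq (GRCr8). Depth was above 65 M counts in each compared library, and counting error alone equals the common spread between libraries (coefficient of variation 0.235) at 18.1 counts, or 0.243 CPM at the median depth (0.486 CPM if each count stands for 2), and is a sizeable part of the error for some way above it.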

Additional observations from a re-analysis of the deposited data

Results flagged for a closer look

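Of 318 groups of libraries examined over 159 named genes, 11 held a library whose gap to its nearest neighbour was large against the range of its group by Dixon's criterion. Chance gives about 1 in 20 groups. Values are log2 CPM. Selfox 6 stood lowest for the class II genes RT1-Ba (4.33, nearest 5.01) and RT1-Da (4.91, nearest 5.47), and highest for Bax (4, nearest 3.69). LPS 6 stood highest for the reductase Por (9.14, nearest 8.44) and lowest for the stress sensor Ern1 (6.47, nearest 6.87). The BMP target Id1 was lowest in LPS 5 (0.89, nearest 1.56) and Hfe lowest in LPS 3 (4.2, nearest 4.48). Highest values were those of Cd37 in LPS 7 (1.71, nearest 1.44), Kif11 in Selfox 7 (2.57, nearest 2.18), Tpm2 in Selfox 3 (2.27, nearest 1.95) and Uck1 in Selfox 4 (3.3, nearest 2.96).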

How the results depend on the processing

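Against 2187 genes, the counts under the planned scalings, filters and tools lay between 1911 (minimum count of 50) and 2649 (DESeq2), with 2502 by voom and 2034 with LPS and Selfox fitted alone. Leaving out 1 library gave 1830 (without LPS 1) or more, and fewer than 2187 each time, and 1392 genes passed in all 17 such fits. The count was 1434 without the late-clock libraries and 2119 without the apart libraries. Libraries of LPS and Selfox share numbers 1 to 7, but same-numbered libraries did not deviate together (correlations from -0.064 to 0.177, 1 of 7 over 0.1, and 1 of 7 best with its own number), so the numbers are not taken as pairs. With the number as a replicate block over those 14 libraries 1259 genes passed, against 1617 in the same 14 without the block. Of 150 named genes that passed, 47 did not without the late-clock libraries, where Dbp (0.19) and Ciart (0.68) changed sign, 32 of 149 did not without the apart libraries and 50 of 149 did not with the block, against 32 of 149 in the same 14 libraries without it. The cause of these losses was not tested. The late-clock libraries were picked by Dbp against Arntl, so the change of sign of Dbp is no separate result. DESeq2 and RLE factors lost 0 of these calls, and halved counts lost 0 of the 148 tested there. Upper-quartile factors lost 1, no filter 7, voom 17, LPS and Selfox alone 7 of 149, and 1 library left out 25 (with 1 not tested in some of those fits).

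Among lists, cytokine genes higher were 9 with voom and 7 with the block, and cell cycle genes higher 9 with the block. Coagulation genes lower were 3 without the late-clock libraries. Ribosomal genes lower were 2 with upper-quartile factors, 0 without the filter, 13 with voom and 11 with LPS and Selfox alone, and clock genes lower 3 without the filter and 2 with voom. Depth limits the low genes: 6 of the 159 named genes had an LPS or Selfox median below 0.243 CPM, where counting error exceeds the common spread between libraries, and 14 below 0.486 CPM, the level if each count stands for 2.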

Other observations

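Genes outside the lists, chosen after their values were seen, are given as values. Among genes lower in Selfox, Cd300lg, an adhesion receptor of capillary endothelium, read 0.73 to 1.72 CPM (median 1.36) in LPS and 0.0283 to 0.14 CPM (median 0.0816) in Selfox (-3.85 ± 0.29, adjusted p = 5.53e-09). Siglec10, an inhibitory sialic acid lectin, read 1.2 to 3.42 CPM (median 2.77) and 0.113 to 0.611 CPM (median 0.238) (-3.15 ± 0.28), and Siglec5, another such lectin, 8.79 to 14.3 CPM (median 12.2) and 1.88 to 5.97 CPM (median 3.89) (-1.60 ± 0.20). The ranges of the groups did not overlap for these genes. Ctss, the lysosomal protease that trims the class II invariant chain, differed by -1.29 ± 0.12, Xcr1, a chemokine receptor of cross-presenting dendritic cells, by -1.47 ± 0.19, and Pltp, the phospholipid transfer protein of plasma, by -1.08 ± 0.11. Gdf2, which encodes BMP9 and signals to endothelium, was lower at -0.63 ± 0.09.

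Among genes higher in Selfox, Ltk, a receptor tyrosine kinase, read 0.028 to 0.125 CPM (median 0.0778) in LPS and 1.48 to 2.84 CPM (median 2.15) in Selfox, and met the filter on low counts only through Selfox libraries. Mme, the peptidase neprilysin, differed by 3.28 ± 0.48 and Il13ra2, a decoy receptor for interleukin-13, by 2.13 ± 0.26, with all 10 Selfox libraries above every LPS library for both. Nlrp3, the inflammasome sensor, read 2.9 to 4.81 CPM (median 3.58) in LPS and 4.81 to 38.9 CPM (median 12.4) in Selfox (2.21 ± 0.40) and stood at 2.07 without the apart libraries (adjusted p = 0.0057). Cd83, a marker of activated antigen-presenting cells, was higher at 2.47 ± 0.31 in all 10 libraries, against the direction of the class II genes. Irf1, a transcription factor of the interferon response, was higher at 3.07 ± 0.73 and did not pass with the apart libraries left out (0.71, adjusted p = 0.216) or with the late-clock ones left out (adjusted p = 0.112). The basement membrane gene Nid1 was higher at 0.80 ± 0.09 and the copper-dependent iron oxidase Heph at 1.30 ± 0.15, each in all 10 libraries.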
